A study of Mus musculus with 7 samples.

Results

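The genes described here encode the secreted and cell surface components of Wnt signalling. They comprise the Wnt ligands, their Frizzled receptors, the Lrp5 and Lrp6 co-receptors, the R-spondins, the inhibitors that bind Wnt proteins or the co-receptors, and the feedback gene Axin2. They were picked out by a rule on the gene names of the probes, which uses no measured value. This gave 46 genes with 55 probes, out of 31131 gene names and 39429 probes on the array.

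Quadriceps RNA was hybridized to 1-colour Agilent mouse arrays, with 1 array per mouse. There were 4 WT arrays and 3 AR113Q arrays, all from C57BL/6 mice of 3 months, which the series design gives as 90 days. AR113Q mice carry a knock-in allele with an expanded CAG repeat at the endogenous locus, the kind of expansion that causes spinal and bulbar muscular atrophy (SBMA), and the age lies before the motor dysfunction of this line. The labels call the controls WT, while the text of the study describes knock-in controls with a short repeat, and the design names the mutant group AR113Q-NCD without explaining the suffix. The comparison asks which genes differed in the muscle before symptoms.

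Wnt proteins are lipid-modified ligands that bind Frizzled receptors. Together with Lrp5 or Lrp6 they stop the destruction of beta-catenin, which then activates genes with TCF/LEF factors, whereas other ligand and receptor pairs act through planar polarity or calcium. R-spondins strengthen the signal by keeping Frizzled receptors on the membrane, secreted Frizzled-related proteins and Wif1 bind Wnt proteins outside the cell, and most Dickkopf proteins bind the co-receptors. In skeletal muscle the pathway is known for its parts in myogenesis, in satellite cells after injury, in fibrosis and at the neuromuscular junction.

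The arrays detected 18785 to 22013 probes each (47.6% to 55.8%), counting a probe as detected when the scanner software marked it well above background, and no spot was saturated (0 of 43020 on every array). The log2 signals of all probes kept correlated at 0.969 to 0.987 between arrays of the same genotype and at 0.908 to 0.943 between genotypes. The arrays came from 5 slides, of which only the slide with WT replicate 2 and AR113Q replicate 1 held both genotypes. The difference between these 2 arrays is given below as the within-slide value, without a test. With the slide as a fixed effect no gene passed the limma threshold. That fit compares the genotypes through these 2 arrays alone. Its residual spread comes from WT replicates 3 and 4, which shared a slide, so it cannot measure the variation between mice of both genotypes.

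A gene was tested where 3 or more of the 7 arrays detected a probe of it, which held for 25 of the 46 Wnt genes (54.3%, against 53.2% of all genes on the array). In 22 of these the probe was above background on all 7 arrays. The exceptions were Frzb, on 4 WT and 2 AR113Q arrays, and Rspo1 and Rspo3, on 3 WT and 2 AR113Q arrays each. Of the 21 genes not tested, 14 were detected on no array. These were 10 ligands (Wnt2, Wnt2b, Wnt3, Wnt3a, Wnt7a, Wnt7b, Wnt8b, Wnt9b, Wnt10b and Wnt16), Rspo2, Rspo4, Dkk1 and Axin2. The other 7 genes (Wnt6, Wnt8a, Wnt10a, Fzd3, Fzd5, Fzd10 and Dkk4) were above background on 1 or 2 arrays.

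**Figure D1:**
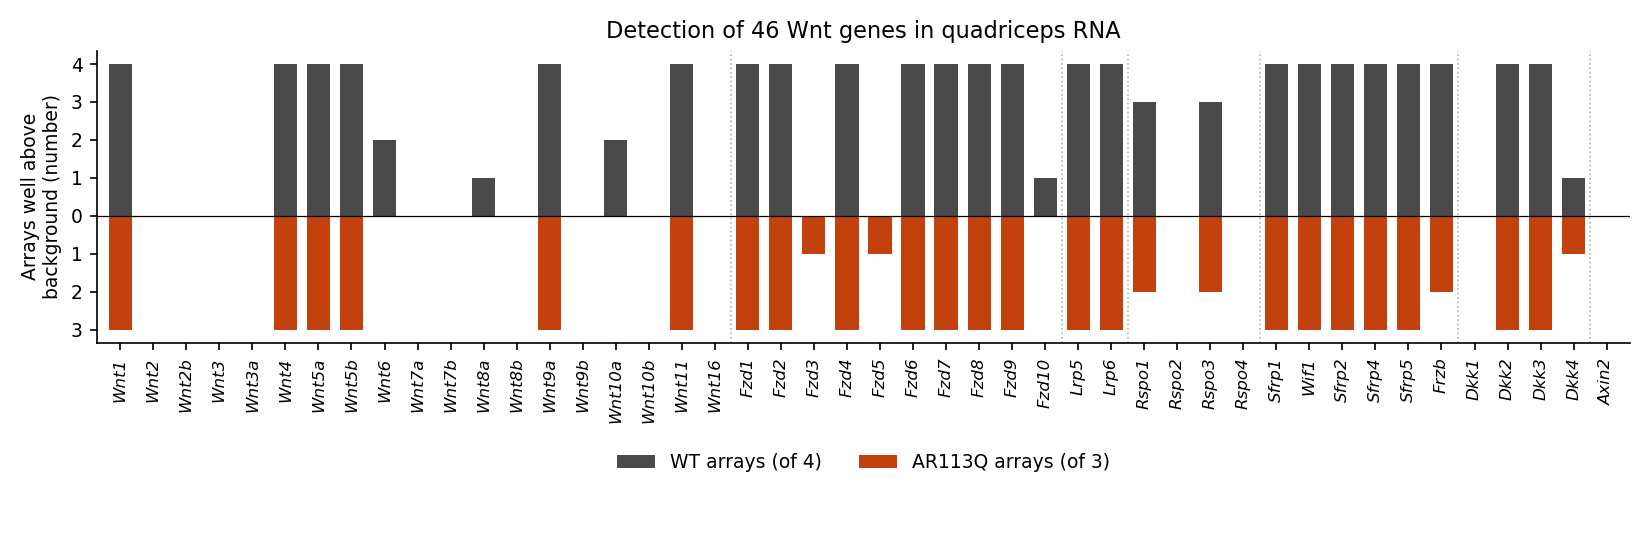
Detection of the 46 Wnt genes in quadriceps RNA. Bars give the number of arrays on which the best detected probe of a gene was well above background, upward for the 4 WT arrays and downward for the 3 AR113Q arrays, with dotted lines between roles. All 6 inhibitors that bind Wnt proteins were detected in both genotypes, whereas 10 of the 19 ligands were detected on no array.

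A differentially expressed gene (DEG) was a gene with a limma adjusted p of at most 0.05 over all 16577 genes tested and at least a doubling or halving of signal (1 on the log2 scale). Among the 25 Wnt genes tested, 7 were DEGs lower in AR113Q (28%, against 13.1% of all genes) and 1 was a DEG higher in AR113Q (4%, against 11.2% of all genes), or 8 in either direction against 24.3% of all genes. The lower genes were the ligand Wnt5a, the receptors Fzd7 and Fzd9, and the secreted inhibitors Sfrp2, Sfrp4, Dkk2 and Dkk3. The only higher gene was the ligand Wnt11. In all 8 DEGs no AR113Q array overlapped a WT array, which their selection by adjusted p and fold change on the same arrays makes likely. Counting every tested Wnt gene, 11 were lower and 2 higher without overlap, 13 in all, against 25.1%, 24.2% and 49.3% of all genes. By adjusted p alone 10 were lower and 1 was higher, against 22.6% and 21% of all genes. The median log2 fold change of the 25 genes was -0.73, while that of all genes was -0.01.

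**Figure D2:**
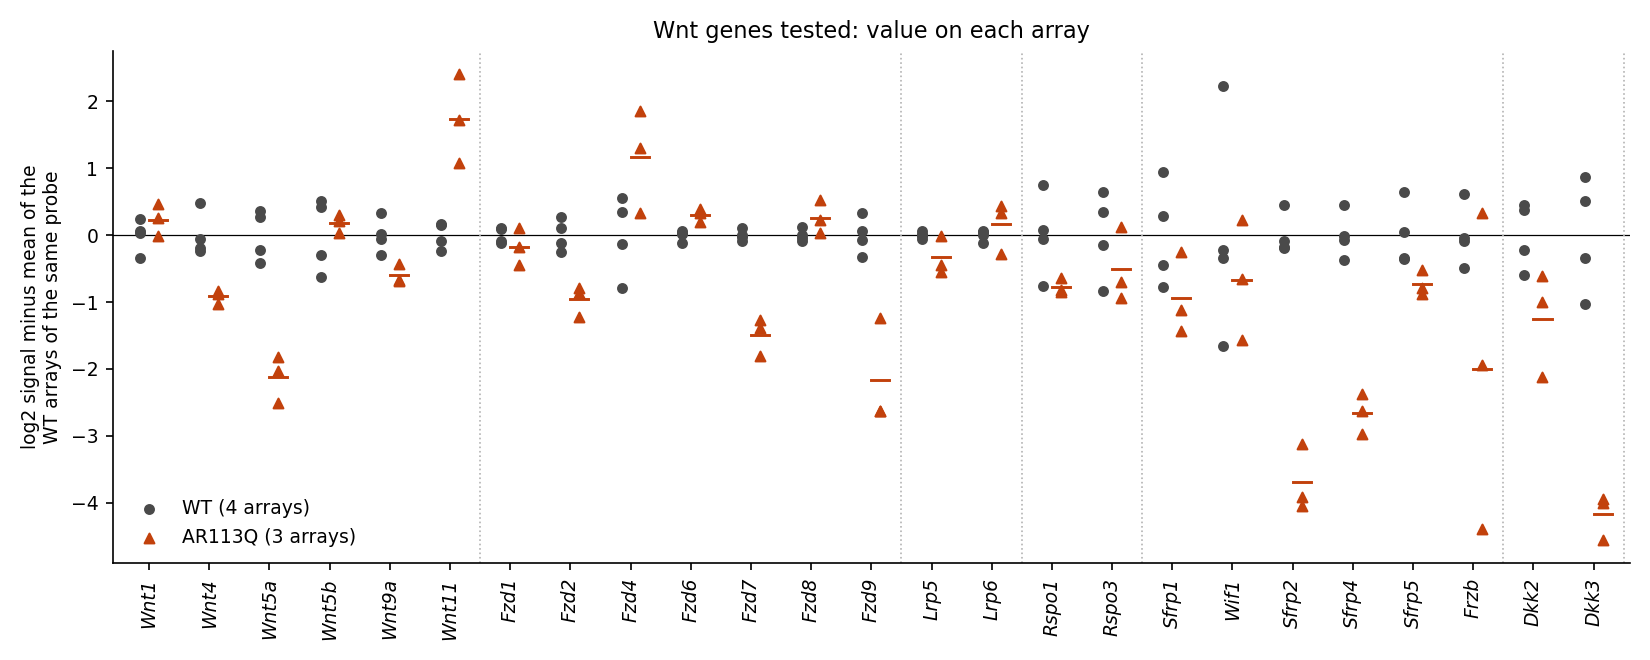
Signal of the 25 tested Wnt genes on each array. The vertical axis is the log2 signal minus the mean of the WT arrays of the same probe, with grey circles for the 4 WT arrays, orange triangles for the 3 AR113Q arrays and an orange line at the AR113Q mean. Sfrp2, Sfrp4 and Dkk3 lie far below WT on all 3 AR113Q arrays, while the AR113Q arrays of Frzb are spread from 1.66 to 6.38 in log2 signal.

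Of the 19 ligands, 6 were tested, and 2 of them moved in opposite directions. Wnt5a, a ligand that acts mostly without beta-catenin, read 7.97, 7.27, 7.47 and 8.05 on the WT arrays and 5.87, 5.66 and 5.18 on the AR113Q arrays in log2 signal. The highest AR113Q array thus lay well below the lowest WT array. Wnt5a was 4.34-fold lower in AR113Q (log2 fold change -2.12, SE 0.26, 95% interval -2.70 to -1.53, adjusted p = 0.000616). The within-slide difference was -1.40. The probe maps to chr14:29336664-29336723 (mm9).

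Wnt11, a ligand known for the polarity and movement of cells in the embryo, went the other way. Its log2 signal was 6.67, 7.07, 7.07 and 6.83 on the WT arrays and 8.0, 8.63 and 9.32 on the AR113Q arrays. All AR113Q arrays were above all WT arrays, and they differed more among themselves (SD 0.66, n = 3) than the WT arrays did (SD 0.19, n = 4). Wnt11 was 3.34-fold higher in AR113Q (log2 fold change 1.74, SE 0.30, 95% interval 1.06 to 2.42, adjusted p = 0.00251), with a within-slide difference of 0.93. On mm9 its probe is at chr7:106001985-106002045.

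The RefSeq promoter table of GRCm38.p6 held 30 of the 46 Wnt genes, 15 of the 25 tested and 5 of the 8 DEGs (Wnt11, Fzd7, Fzd9, Dkk2 and Sfrp2). The 250 bases before the start of Wnt11, the only higher Wnt DEG, and of Sfrp2, a lower one, are shown 5′ to 3′ on the plus strand. They cover chr7:98834862-98835111 and chr3:83766071-83766320, and capitals mark the TCF/LEF motif CTTTGAT, here on the opposite strand.
Wnt11: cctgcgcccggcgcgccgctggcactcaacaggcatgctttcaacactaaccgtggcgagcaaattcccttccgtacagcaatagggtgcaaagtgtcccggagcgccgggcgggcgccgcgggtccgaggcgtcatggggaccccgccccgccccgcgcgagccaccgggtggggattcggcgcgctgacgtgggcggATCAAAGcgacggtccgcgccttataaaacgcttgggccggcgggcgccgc
Sfrp2: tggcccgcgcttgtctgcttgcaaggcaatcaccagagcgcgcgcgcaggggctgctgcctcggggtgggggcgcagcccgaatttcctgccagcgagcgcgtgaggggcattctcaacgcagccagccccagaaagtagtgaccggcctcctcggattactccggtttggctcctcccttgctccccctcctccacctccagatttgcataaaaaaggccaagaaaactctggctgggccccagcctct
The motif CTTTGAT, searched on both strands, was in 1225 of the 32851 promoters of the table (3.73%). Among the tested Wnt genes it was in 2 of 18 promoters (11.1%), 1 of Wnt11 and 1 of Wnt5b. Of the 6 promoters of Wnt DEGs, only that 1 of Wnt11 held the motif, so most DEG promoters lacked it. In Wnt11 it lay 51 to 45 bases before the first of 2 listed starts, and in Sfrp2 these letters were not in the window. These matches describe letters in a window and not binding.

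The remaining tested ligands were not DEGs. Wnt4, a ligand known from kidney and gonad development, was measured by 2 probes that differed in size. The probe that represents the gene read 10.16, 9.50, 9.45 and 9.62 on the WT arrays and 8.81, 8.84 and 8.65 on the AR113Q arrays. Its log2 fold change of -0.91 (SE 0.20, adjusted p = 0.00781) passed the adjusted p but not the fold threshold. The other probe had a log2 fold change of -1.56 (SE 0.20, adjusted p = 0.000779 over all probes), and with any probe or the mean over probes Wnt4 was a lower DEG. Wnt9a, known from joint formation, also passed by adjusted p alone, with a log2 fold change of -0.59 (SE 0.18, adjusted p = 0.0310) and no overlap between groups. Under other processing or with an array left out, Wnt9a ranged from -0.69 to -0.31. Wnt1 (log2 fold change 0.23, 95% interval -0.21 to 0.68) and Wnt5b (0.19, -0.48 to 0.86) did not pass.

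Wnt6 and Wnt10a, ligands best known from epithelia, were each well above background on 2 WT arrays and on no AR113Q array, so they were not tested. Wnt6 read 4.13, 5.01, 4.87 and 4.01 on the WT arrays and 2.96, 2.40 and 2.99 on the AR113Q arrays. With each AR113Q array raised to its lowest signal well above background, Wnt6 was 1.85-fold lower. This is no secure lower limit, because only 2 of the 4 WT readings were above background. Wnt10a read 2.72, 5.16, 4.28 and 1.74 in WT and 1.59, 1.49 and 1.55 in AR113Q, for which the same step left no decrease.

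Of the 10 Frizzled receptors 7 were tested, and Fzd7 and Fzd9 fell. Fzd7, known as a Wnt7a receptor on satellite cells, read 8.67, 8.70, 8.81 and 8.61 on the WT arrays and 7.43, 7.31 and 6.89 on the AR113Q arrays. The WT arrays lay close together (SD 0.08, n = 4), and every AR113Q array lay more than 1 log2 unit below them. Fzd7 was 2.81-fold lower (log2 fold change -1.49, SE 0.17, 95% interval -1.88 to -1.09, adjusted p = 0.000521), with a within-slide difference of -1.27. The probe maps to chr1:59543192-59543251 (mm9).

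Fzd9, a receptor whose human counterpart lies in the region lost in Williams syndrome, read 10.21, 10.08, 10.47 and 9.82 on the WT arrays and 7.52, 7.52 and 8.91 on the AR113Q arrays. AR113Q replicate 3 was nearer to WT than the other AR113Q arrays were. The log2 fold change was -2.16 (SE 0.35, 95% interval -2.97 to -1.35, adjusted p = 0.00209), a 4.48-fold decrease, and the within-slide difference was -2.56. On mm9 its probe is at chr5:135724815-135724874.

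Fzd2 and Fzd7 are close relatives, and each was covered by 2 probes of which only 1 was kept. The kept Fzd2 probe and the Fzd7 probe that was not kept are shown because they target the same stretch of the paired genes. Their sequences, from the array annotation, lie on the plus strand of mm9 at chr11:102467613-102467672 (Fzd2) and chr1:59541367-59541426 (Fzd7). Of the 50 bases over which the probes align, 42 are identical (84.0%), and capitals mark the 8 that differ.
Fzd2: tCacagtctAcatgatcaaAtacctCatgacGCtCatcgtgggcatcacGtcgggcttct
Fzd7: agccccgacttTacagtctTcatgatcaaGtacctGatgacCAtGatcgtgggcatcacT
The Fzd2 probe read 7.23, 7.45, 7.62 and 7.09 on the WT arrays and 6.13, 6.49 and 6.55 on the AR113Q arrays, without overlap. Its log2 fold change of -0.96 (SE 0.19, adjusted p = 0.00479, within-slide -1.32) passed the adjusted p but fell short of the fold threshold. Without WT replicate 4, AR113Q replicate 2 or AR113Q replicate 3 it was a lower DEG, as it was with scaling to the 75th percentile. Its log2 fold change was -0.48 with normexp and -0.34 with the authors' values. The second Fzd2 probe was detected on no array. The Fzd7 probe shown was above background on 1 WT array and read 3.23, 3.39, 1.72 and 2.88 in WT and 1.66, 1.54 and 1.73 in AR113Q. The Fzd7 and Fzd2 results thus rest on 1 probe each.

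Fzd4, the norrin receptor of retinal vessels, read 10.84, 11.33, 11.53 and 10.19 on the WT arrays and 11.30, 12.28 and 12.84 on the AR113Q arrays. The groups overlapped through AR113Q replicate 1, and the log2 fold change of 1.16 (SE 0.42, 95% interval 0.19 to 2.14) missed the threshold at an adjusted p of 0.0552. The within-slide difference was -0.028. Without WT replicate 3 or AR113Q replicate 1 Fzd4 was a higher DEG, and the log2 fold change ranged from 0.82 to 1.58 over the arrays left out. Fzd6, a receptor of planar polarity, was higher in AR113Q without overlap but by 0.30 on the log2 scale (SE 0.14, adjusted p = 0.111). For Fzd1 and Fzd8 the log2 fold changes were -0.17 (95% interval -0.57 to 0.23) and 0.26 (-0.12 to 0.64).

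Neither co-receptor was a DEG. Lrp5 read 8.32, 8.35, 8.28 and 8.40 in WT and 7.89, 7.78 and 8.33 in AR113Q (log2 fold change -0.33, SE 0.17, adjusted p = 0.149). Lrp6 had 2 kept probes. The one that represents the gene gave 0.16 (95% interval -0.29 to 0.62), whereas the other gave 0.67 (SE 0.18, adjusted p = 0.0185 over all probes) and did not overlap between genotypes. Neither Lrp6 probe reached the fold threshold. Among the R-spondins, Rspo1 had a log2 fold change of -0.77 (SE 0.32, adjusted p = 0.0816) and Rspo3 of -0.51 (SE 0.39, adjusted p = 0.321). With an array left out Rspo3 ranged from -0.82 to -0.29. Rspo1 was a lower DEG without WT replicate 4 and with scaling to the 75th percentile. With normexp the values were -0.16 for Rspo1 and -0.15 for Rspo3, and with the authors' values Rspo3 was at -0.08 (Rspo1 was not tested there).

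The secreted inhibitors held the largest differences among the Wnt genes. All 6 genes whose products bind Wnt proteins were tested, and all had a negative log2 fold change (median -1.47). Sfrp2, a secreted Frizzled-related protein made mainly by connective tissue cells, read 9.54, 8.92, 8.91 and 9.01 on the WT arrays and 5.17, 5.97 and 5.04 on the AR113Q arrays. The groups were separated by more than their whole internal spread. Sfrp2 was 13.0-fold lower in AR113Q (log2 fold change -3.70, SE 0.27, 95% interval -4.32 to -3.08, adjusted p = 0.000108), with a within-slide difference of -3.74. The probe maps to chr3:83577864-83577923 (mm9).

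Sfrp4, a related inhibitor known from bone, read 8.55, 8.61, 8.24 and 9.07 in WT and 5.99, 6.24 and 5.65 in AR113Q. Again no array of one genotype came near the other. Sfrp4 was 6.31-fold lower (log2 fold change -2.66, SE 0.23, 95% interval -3.19 to -2.12, adjusted p = 0.000186), and within the shared slide the difference was -2.62. On mm9 its probe is at chr13:19724488-19724547.

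The other 4 Wnt-binding inhibitors were not DEGs. Sfrp5 was lower on every AR113Q array (8.85, 8.77 and 9.12) than on any WT array (9.29, 10.29, 9.69 and 9.30), but its log2 fold change of -0.73 (SE 0.26) missed the threshold at an adjusted p of 0.0528. Frzb, also called Sfrp3, read 5.57, 5.97, 6.67 and 6.01 in WT and 1.66, 4.11 and 6.38 in AR113Q. AR113Q replicate 1 was far below WT and replicate 3 within it, and the log2 fold change was -2.0 (SE 0.93, adjusted p = 0.115). Without AR113Q replicate 3 Frzb was a lower DEG at -3.17 (adjusted p = 0.00744), and without AR113Q replicate 1, which did not detect it, the value was -0.81. With normexp it was -0.45. Sfrp1 (log2 fold change -0.94, SE 0.45, adjusted p = 0.123) and Wif1 (-0.67, SE 0.83, adjusted p = 0.546) overlapped between groups. Under other processing or with an array left out, Sfrp1 ranged from -1.28 to -0.19. The Wif1 value rested on WT replicate 3 at 9.0, without which it was 0.08.

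Both tested Dickkopf genes were lower DEGs. Dkk3, a family member that is not known to act on Wnt signalling the way Dkk1 does, read 10.699, 10.35, 8.80 and 9.49 on the WT arrays and 5.83, 5.88 and 5.27 on the AR113Q arrays. The WT arrays spread over almost 2 log2 units, yet the lowest of them remained far above the highest AR113Q array. The decrease of 18.03-fold was the largest of the Wnt genes tested (log2 fold change -4.17, SE 0.44, 95% interval -5.17 to -3.17, adjusted p = 0.000366), with a within-slide difference of -4.52. The probe maps to chr7:119259556-119259615 (mm9).

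Dkk2, which binds Lrp5 and Lrp6, read 8.24, 7.57, 7.20 and 8.17 in WT and 7.18, 6.79 and 5.66 in AR113Q. The lowest WT array and the highest AR113Q array nearly met, but the groups did not overlap. The log2 fold change was -1.25 (SE 0.40, 95% interval -2.16 to -0.33, adjusted p = 0.0350), a 2.38-fold decrease, and the within-slide difference was -0.38. This call was lost when WT replicate 1, 2 or 4 or AR113Q replicate 2 or 3 was left out, with log2 fold changes from -1.57 to -0.81 over the 7 arrays left out in turn. On mm9 its probe is at chr3:131842357-131842416. Dkk1 was not detected, and Dkk4 was above background on 1 array of each genotype.

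**Figure D3:**
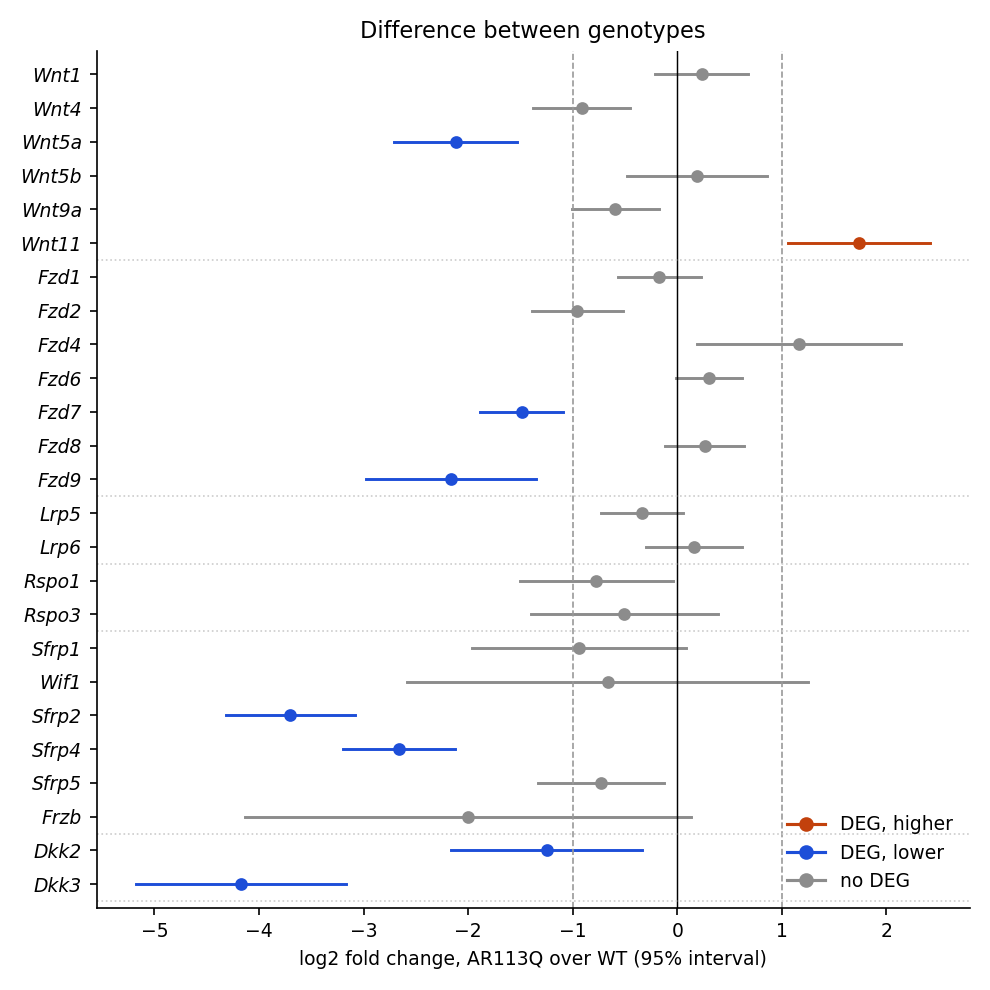
Log2 fold change of the 25 tested Wnt genes, AR113Q over WT. Points are limma estimates with 95% intervals, dashed lines mark the fold threshold, dotted lines separate the roles, and colours mark DEGs. Dkk3, Sfrp2 and Sfrp4 have the largest decreases (-4.17, -3.70 and -2.66), and Wnt11 is the only higher DEG (1.74).

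The sizes of these differences depended on how the background of dim spots was treated, while the direction did not. With the authors' own log2 values, which correlated across probes with the mean spot signal before background subtraction at 0.991 to 0.999, the log2 fold change was -2.20 for Dkk3, -1.79 for Sfrp2, -1.25 for Sfrp4, -1.55 for Fzd9 and 1.04 for Wnt11, and these 5 remained DEGs. Wnt5a (-0.63, adjusted p = 0.00518), Fzd7 (-0.85, adjusted p = 0.000429) and Dkk2 (-0.51, adjusted p = 0.0477) then passed the adjusted p but not the fold threshold. With normexp background correction Dkk3 was at -2.62, Sfrp2 at -2.23, Sfrp4 at -1.59 and Wnt11 at 1.23, and Wnt5a (-0.94) and Dkk2 (-0.67) fell short of the fold threshold. None of the 8 DEGs changed sign under any of 21 alternatives. Many of these could not change it. In groups without overlap, leaving out or weighting arrays, or fitting the slide or replicate as fixed, cannot reverse a difference.

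**Figure D4:**
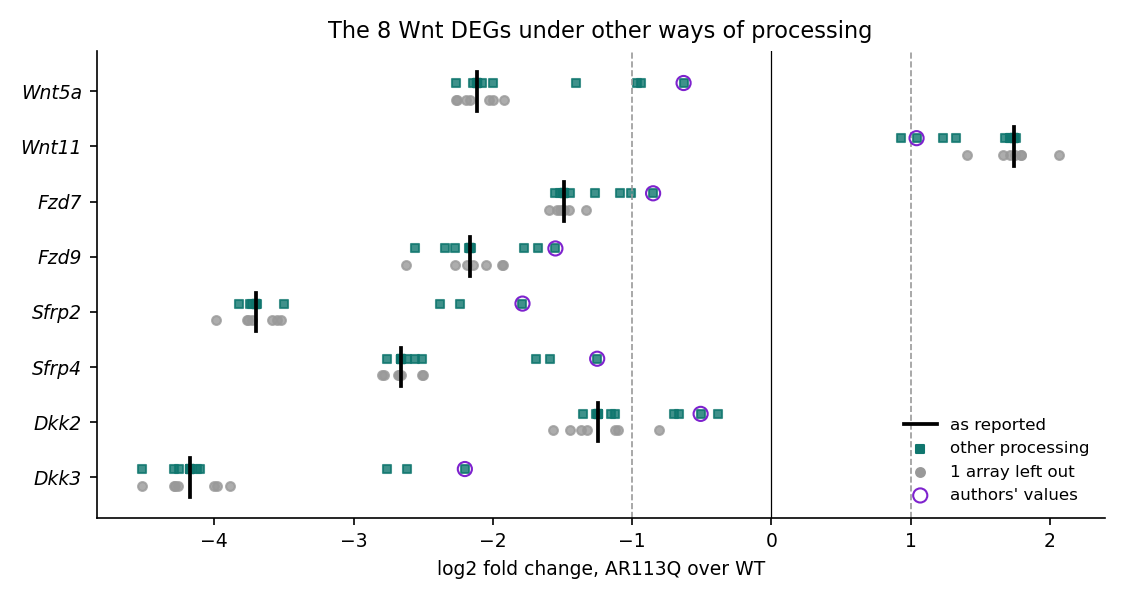
The 8 Wnt DEGs under other processing and with arrays left out. Each row gives the log2 fold change of a gene, AR113Q over WT, as reported (black line), under other processing (green squares, the authors' values circled in purple) and without each array in turn (grey circles), and dashed lines mark the fold threshold. Every value keeps its sign, which leaving out an array could not change in groups without overlap, and Dkk2 ranges from -1.57 to -0.38.

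The rest of the pathway was described with lists of genes that handle, transmit or answer the signal. Of 21 genes for Wnt secretion and reception, 14 were tested, 1 was a higher DEG and 0 were lower (median log2 fold change -0.24), against 11.2% and 13.1% of all genes. The higher gene was Rnf43, a ubiquitin ligase that removes Frizzled receptors. It was detected on 1 WT and 2 AR113Q arrays, so its log2 fold change of 1.55 (SE 0.50, adjusted p = 0.0374) includes readings that were not above background. The call was lost with 75th percentile scaling and with normexp, where the value was 0.21, and without any array in turn other than WT replicate 2. Without WT replicate 3, AR113Q replicate 2 or AR113Q replicate 3 the list had 1 lower DEG, and with 75th percentile scaling it had 0 higher and 2 lower, the receptor gene Ror2 (-1.20) and Apcdd1 (-1.14), named after their values were seen.

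Of 32 genes of the beta-catenin cascade, 28 were tested, and 3 were higher and 1 lower (median 0.16). This is 4 DEGs in either direction, where 24.3% of all genes were DEGs. Ctnnb1, which encodes beta-catenin, had a log2 fold change of -0.27 (adjusted p = 0.224). The higher genes were Tnks, a tankyrase that destabilizes axin (1.84, adjusted p = 0.000421), the casein kinase gene Csnk1d (1.20, adjusted p = 0.00331) and the co-repressor gene Tle1 (1.04, adjusted p = 0.0198). The lower one was the related co-repressor gene Tle2 (-1.22, adjusted p = 0.00158). With normexp or the authors' values only Csnk1d remained a DEG. Without AR113Q replicate 2 or 3 the lower DEGs were 2. The choice of probe also moved this list, to 1 higher and 1 lower (median 0.38) with the mean over the probes of a gene. With any probe it was 8 higher and 1 lower (median 0.58), against 13.2% and 14.2% of all genes, so that its place relative to all genes depended on the probe.

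Of 20 genes known as beta-catenin targets in at least some tissues, 15 were tested, and 6 were lower and 2 higher (median -0.60), against 13.1% and 11.2% of all genes. The largest decreases were in Ccnd1, which encodes cyclin D1 (-3.85, adjusted p = 5.03e-05), in the angiogenic factor gene Vegfa (-2.52, adjusted p = 0.000138) and in Cd44, which encodes a hyaluronan receptor (-2.35, adjusted p = 0.000964). The higher genes were Rnf43, which is also in the first list, and Myc (1.07, adjusted p = 0.0342). Both higher calls were lost without WT replicate 1, WT replicate 4, AR113Q replicate 1 or AR113Q replicate 3, and 1 was lost without each of the other arrays. With normexp or the authors' values only Ccnd1 and Vegfa were lower and 0 were higher (medians -0.34 and -0.24), while 5.69% and 4.98% of all genes were lower DEGs. Without a filter on dim probes the list had 0 higher and 5 lower (median -0.22), and with detection on all 7 arrays 1 higher and 4 lower (median -0.30). Axin2, the target most used to read this branch, was not detected on any array. Several of the targets answer to many other signals.

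Of 22 genes for the planar polarity and calcium branches, 19 were tested, and 2 were lower and 1 higher (median -0.05). This is 3 DEGs in either direction, where 24.3% of all genes were DEGs. Camk2a, a calcium and calmodulin dependent kinase gene, fell by 3.97 on the log2 scale (SE 0.27, adjusted p = 9.13e-05), and Nfatc2, a calcium-responsive transcription factor gene, had a log2 fold change of -1.26 (adjusted p = 0.00143). The cadherin gene Celsr3 was detected on the 3 AR113Q arrays and on 0 WT arrays, so it passed the detection filter only through the group in which it was high. On the background-subtracted scale it was at least 4.82-fold higher in AR113Q, but its log2 fold change was 0.78 with normexp and 0.71 with the mean spot signal, under the fold threshold in both. With normexp only Camk2a remained a DEG of this list.

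Several Wnt genes are known to be expressed by cells other than myofibers, so markers of the cell types of muscle were read beside them. Whole muscle RNA cannot tell fewer cells of a type from less RNA per cell. Of 11 markers of fibroblasts and fibro-adipogenic progenitors, 7 were lower DEGs and 0 higher (median log2 fold change -2.33), against 13.1% and 11.2% of all genes, led by Col3a1 (-4.62), Col1a1 (-3.27) and Clec3b (-3.24). Their summed signal was 129796 to 163313 on the WT arrays and 85605 to 129616 on the AR113Q arrays. Dcn, the brightest of these markers, weighs most in the sum, and it read higher on every AR113Q array than on any WT array. All 11 were well above background on every array, and the progenitor marker Pdgfra (-0.27, adjusted p = 0.425) and the abundant proteoglycan gene Dcn (0.41, adjusted p = 0.0692) were not DEGs. Of 7 tenocyte markers 3 were lower, against 13.1% of all genes. They were led by Tnmd (-2.79, SE 0.78), which was detected on 2 of the 3 AR113Q arrays. Tnmd was at -1.21 with normexp and at -0.79, no longer a DEG, with the authors' values. The tenocyte markers had summed signals of 8372 to 19945 in WT and 2756 to 9721 in AR113Q. The tenocyte count was 1 without WT replicate 1, WT replicate 3 or AR113Q replicate 1 and with the authors' values, and 0 without a filter on dim probes, and the median of -1.42 became -0.66 without AR113Q replicate 1. The fibroblast count was 7 or 8 with each array left out. The part of these cells in the lower signals of Sfrp2, Sfrp4 and Dkk3 was not tested.

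Of 5 tested satellite cell markers 3 were lower, against 13.1% of all genes. These were Myod1 (-3.98), Chodl (-1.52) and Calcr, which passed the detection filter only through the 4 WT arrays and was at least 2.11-fold lower on this scale (log2 fold change -0.28 with normexp), while Pax7 was at -0.25 (adjusted p = 0.335). Their summed signal was 1560 to 2028 in WT and 908 to 1394 in AR113Q, and the part of these cells in the Fzd7 difference was not tested. The brightest of these markers, Cdh15, weighs most in the sum and was not a DEG (-0.39, adjusted p = 0.200). With normexp, the mean spot signal or the authors' values 1 of the 5 was lower, and the median of -1.52 became -0.38, -0.38 and -0.23. Of 6 adipocyte markers 4 were lower, against 13.1% of all genes, led by Adipoq (-2.71), and the sums were 59316 to 98883 and 37989 to 46002. This count was 2 without WT replicate 2, WT replicate 4, AR113Q replicate 1 or AR113Q replicate 2, with the authors' values and without a filter on dim probes. Macrophage markers had 1 higher and 2 lower of 6 (6858 to 11078 and 4590 to 6266), Schwann cell markers 0 higher and 1 lower of 6 (1297 to 3349 and 904 to 1178), and smooth muscle and pericyte markers 0 higher and 1 lower of 7 (13693 to 15315 and 8157 to 13478). Of all genes 11.2% were higher and 13.1% lower DEGs, and the Schwann cell and smooth muscle counts of lower DEGs lie near that share. With an array left out the lower counts were 1 to 3 for macrophages (1 without WT replicate 1, 3 without AR113Q replicate 2, where the higher call was also lost), 0 to 2 for Schwann cells (1 only without WT replicate 3, and 2 without WT replicate 4) and 1 to 2 for smooth muscle (2 without AR113Q replicate 3). The higher macrophage call was lost with 75th percentile scaling, normexp and the mean spot signal, and the smooth muscle call with normexp, the mean spot signal and the authors' values. Among 7 endothelial markers (2792 to 2983 and 2380 to 3269) and 8 myofiber markers (879416 to 953378 and 605518 to 944880) there were 0 DEGs, with medians of -0.03 and -0.23. Ckm (-0.80, adjusted p = 0.0102) and Ttn (-0.66, adjusted p = 0.0264), named after their values were seen, passed the adjusted p alone. With 75th percentile scaling Acta1 (-1.22) and Ckm (-1.26) were lower DEGs and the myofiber median was -0.66, and without AR113Q replicate 3 the median was -0.55. The myofiber markers were well above background on every array.

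**Figure D5:**
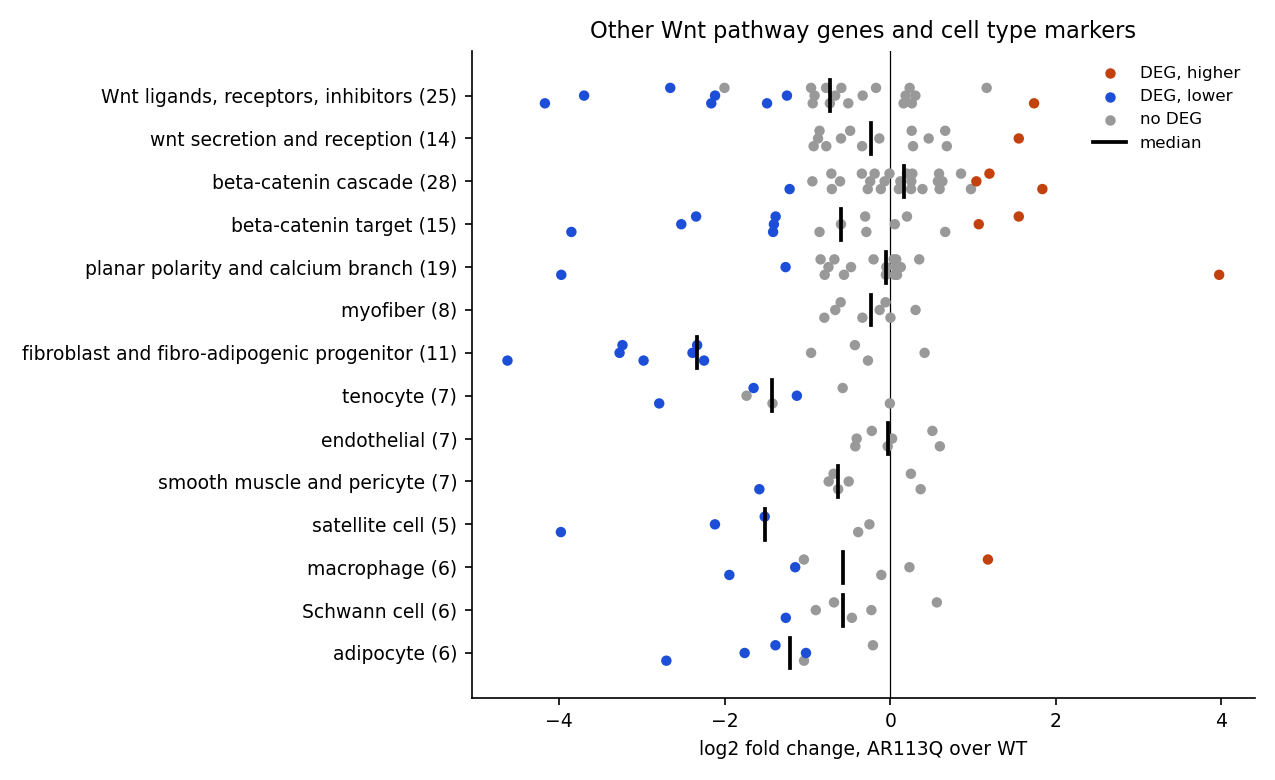
Log2 fold changes, AR113Q over WT, of the tested Wnt genes and of the pathway and cell type marker lists. Each point is a gene, colours mark DEGs, black lines are medians, and the number of tested genes stands after each name. Medians run from -2.33 for fibroblast markers to 0.16 for the beta-catenin cascade, and the Wnt genes lie at -0.73.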

How the data were processed

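Per array, the authors deposited the spot table of Agilent Feature Extraction 10.7.3.1. Its processed intensity is corrected for background within an array, and arrays were not yet put on one scale. A second deposited table holds log2 values of 18592 probes, quantile normalized per the methods, with column medians of 8.92 to 8.93. The filter behind that table is not given in the sources used here. All of its probes matched a scanner probe, and 24 Wnt genes were in it. The values differ in background treatment and filter, and the fold changes of the Wnt DEGs were smaller from the authors' table than from the spot tables.

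Control spots were removed here, which left 43020 spots per array, of which 94 to 151 were marked as outliers and set to missing. The log2 intensities were then quantile normalized. A probe took the mean of its spots. Probes detected on 3 or more of the 7 arrays were kept (20991 of 39429), and the kept probe with the highest mean represented its gene. RefSeq accessions of the GRCm38.p6 table named 28330 probes, and the array annotation, which gives positions on mm9, named the others. The genotype difference was fitted with limma (version 3.58.1, R 4.3.3; lmFit, then eBayes), 2-sided, with Benjamini-Hochberg adjustment over 16577 genes. The procedure was tested on simulated data. The number of arrays limits the precision, and mice were the replicates.

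Every member of the name rule was accounted for, Wnt DEGs were given with all arrays, and from each list the DEGs with the largest change were named, up to 3 in each direction. For marker lists up to 3 genes with the largest change were named, and Pdgfra, Dcn, Pax7, Cdh15 and Ctnnb1 were added after their values were seen. Some measured results are not reported here. The members and the lists were chosen with earlier results of these data known, so their counts are descriptions. Alternatives covered the scale (75th percentile, normexp with an offset of 50, the authors' values), the filter (none, or detection on 7 of 7 arrays), the choice of probe (mean of the probes, or any of them), outlier spots, an intensity trend, array weights, the fold threshold, the slide (random or fixed), a replicate block, and each array left out. The mean spot signal without background subtraction was chosen after seeing the data.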

Additional observations from a re-analysis of the deposited data

Results flagged for a closer look

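The WT arrays of Sfrp2 held a sample apart from the rest. WT replicate 1 read 9.54, and the other WT arrays lay between 8.91 and 9.01. Its gap to the nearest array, divided by the range of the group, was 0.834, above Dixon's critical value for 4 samples at the 95% level. This was the only such group among the 25 WT groups checked, and chance alone marks about 5% of groups. Without WT replicate 1 Sfrp2 remained a lower DEG.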

How the results depend on the processing

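The 8 Wnt DEGs kept their direction under each of the 21 alternatives run on single genes. Because their groups do not overlap, many of these alternatives, such as each array left out, could not have reversed it. The 7 lower Wnt DEGs became 4 of 24 tested with the authors' values, where 4.98% of all genes were lower DEGs. With an array left out they were 6 to 8 of 25, against 11.6% to 14.0% of all genes. The 1 higher Wnt DEG became 2, through Fzd4, with 75th percentile scaling, normexp, the mean spot signal, an intensity trend, slide as a random block and a filter on all 7 arrays. In those settings 4.87% to 11.2% of all genes were higher DEGs. It was 1 to 2 with an array left out, against 9.31% to 12.1% of all genes. Over all genes, 1852 higher and 2178 lower DEGs became 624 and 741 of 14885 genes with the authors' values. They were 807 and 944 with normexp, 874 and 1030 with the mean spot signal, and 3484 and 3745 without the fold threshold. With an array left out they ranged from 1543 to 2012 and from 1924 to 2319.

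Once slide entered as a fixed effect, so that only 1 slide compares the genotypes, limma called 0 Wnt genes higher, 0 lower, and 0 of all genes in either direction. The difference in that fit rests on 1 array of each genotype. There Fzd4 (-0.028), Lrp6 (-0.34), Wif1 (0.10), Wnt1 (-0.26) and Wnt5b (-0.11) changed sign. With arrays left out, Wif1 ranged from -1.22 to 0.078 and Wnt5b from -0.025 to 0.35. Without a filter on dim probes Wnt6 and Fzd10 were also lower DEGs and Dkk2 was not. The cause of these changes was not tested.

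The replicate numbers are shared between the genotypes. Deviations of same-numbered arrays correlated at 0.04, -0.02 and 0.16, and 1 of 3 AR113Q arrays correlated best with its own number. With the replicate number as a block, which leaves WT replicate 4 without a partner, 9 Wnt genes were lower and 1 higher, against 1853 higher and 2136 lower of all genes. The added genes were Fzd2 and Rspo1, and Wnt5b changed sign (-0.025). Signal near background limits Frzb, Rspo1, Rspo3 and the 21 Wnt genes not tested.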
